A study of Mus musculus with 20 samples.

Results

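DNA methylation of the newborn liver was compared between offspring of dams exposed to an adverse maternal environment (AME) and offspring of control dams (Con), using the 10 libraries labelled AME-d0 and Con-d0, 5 per group, of the 20 libraries of the series. All 10 livers came from wild-type C57BL/6J pups labelled male, delivered by caesarean section at the end of gestation and called d0. AME dams ate a Western diet from 5 weeks before mating through pregnancy and were stressed in late gestation, whereas Con dams ate a control diet and were not stressed. The study used 5 dams per group, and the labels do not tie a pup to its dam, so the p-values measure the spread between these livers. The other 10 libraries are from different animals at weaning (d21) and were used only where a comparison with that age is named. Methylation was measured by RRBS (reduced representation bisulfite sequencing), in which MspI cuts the genome at CCGG and fragments rich in CpGs are sequenced. Bisulfite turns unmethylated cytosines into bases read as T, which tells a methylated from an unmethylated CpG in each read.

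In mammals a methyl group on the cytosine of a CpG is copied to the new strand by Dnmt1, placed anew by Dnmt3a and Dnmt3b, and removed through oxidation by the Tet enzymes. Most CpGs in gene bodies and between genes are methylated, and CpG islands at promoters are mostly free of methylation. The newborn liver is still a site of blood formation beside its hepatocytes, so ground liver holds hepatocytes, erythroid and myeloid cells, endothelium and macrophages. In such bulk tissue a change of methylation within a cell type and a change in the share of that cell type cannot be told apart.

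Autosomal CpGs with at least 10 reads in each of the 10 libraries numbered 728195. Their methylated and unmethylated reads were summed over 182597 bins of 200 bp, over 16685 promoters (1 kb on either side of a transcription start site, TSS) and over 14363 gene bodies (the annotated gene without that window), the latter 2 with at least 3 such CpGs. Methylation is given below as the percent of these reads that were methylated, per library in the order of replicates 1 to 5, or as mean ± SD over n = 5 libraries per group. Where 2 values are joined by "against", the first is Con-d0 and the second AME-d0. Differences are AME-d0 minus Con-d0 in percentage points. Here and below, a read that covers several CpGs is counted at each of them.

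The libraries held 28451406 to 45769589 reads over CpGs in Con-d0 and 28983007 to 36802549 in AME-d0, and the median shared CpG had 26 to 42 reads. X-linked reads numbered 1.40 to 1.51 per 100 autosomal reads. The lowest were AME-d0 replicates 3 (1.40) and 1 (1.45), and the other 8 libraries were at 1.48 to 1.51. AME-d0 replicates 1 and 3 stood apart in composition: 56.8% and 58.9% of their reads at the shared CpGs lay in CpG islands, against 51.7% to 53.8% in the other 8 libraries. They also had the lowest mean methylation of the 10 libraries, and the results were therefore computed without both as well. Leaving out the lowest AME-d0 libraries raises the AME-d0 means by construction. Smaller differences without both therefore show how far a value rests on them and are no separate test. Con-d0 libraries were left out only singly. The part that this composition plays in the results was not tested. AME-d21 replicate 4, labelled male, had 2.88 X-linked reads per 100 autosomal reads, and 0.00143% of its reads lay on the Y short arm. The other d21 libraries had 1.53 to 1.55 and 0.0166% to 0.0191%. These shares go against its label, so values at d21 are given with it and without it.

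The bins in which the groups were most clearly apart show what kind of sequence was read, and 5 of them are printed here because their groups did not overlap and had means at least 10 points apart. Each run is the forward strand of GRCm38, 5′ to 3′, with the CpGs that had enough reads in capitals. The first is in an intron of Cdh13, which encodes an anchored cadherin, at chr8:118864201-118864400. The second lies in the gene Gm15637, 3572 bp upstream of the TSS of Cux2, a homeobox factor, at chr5:122053601-122053800. The third is outside annotated genes near the olfactory receptor gene Olfr867, at chr9:20068201-20068400. The fourth is in an intron of Dgkz, a diacylglycerol kinase, at chr2:91935601-91935800. The fifth lies within Mks1, a protein of the ciliary transition zone, at chr11:87857801-87858000. None of the 5 lay in a CpG island or its shore. Intron, island and shore were assigned by the first measured CpG of a bin. Later CpGs of a bin labelled intron, as in Mks1, may therefore lie in an exon.
Cdh13 intron: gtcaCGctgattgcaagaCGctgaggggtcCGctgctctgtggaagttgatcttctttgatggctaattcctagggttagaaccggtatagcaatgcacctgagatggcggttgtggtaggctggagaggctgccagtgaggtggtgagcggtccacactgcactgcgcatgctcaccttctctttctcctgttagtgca
Gm15637, near Cux2: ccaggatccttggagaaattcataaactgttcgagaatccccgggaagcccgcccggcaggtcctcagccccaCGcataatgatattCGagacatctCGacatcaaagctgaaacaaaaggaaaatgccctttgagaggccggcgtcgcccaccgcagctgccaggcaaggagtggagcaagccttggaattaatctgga
near Olfr867: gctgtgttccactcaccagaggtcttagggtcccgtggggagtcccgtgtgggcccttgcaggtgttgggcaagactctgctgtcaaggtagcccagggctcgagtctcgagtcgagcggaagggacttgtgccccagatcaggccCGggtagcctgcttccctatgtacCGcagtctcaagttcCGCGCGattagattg
Dgkz intron: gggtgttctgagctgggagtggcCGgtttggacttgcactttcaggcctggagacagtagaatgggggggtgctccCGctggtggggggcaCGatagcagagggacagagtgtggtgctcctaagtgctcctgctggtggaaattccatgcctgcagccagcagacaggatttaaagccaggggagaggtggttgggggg
Mks1 intron: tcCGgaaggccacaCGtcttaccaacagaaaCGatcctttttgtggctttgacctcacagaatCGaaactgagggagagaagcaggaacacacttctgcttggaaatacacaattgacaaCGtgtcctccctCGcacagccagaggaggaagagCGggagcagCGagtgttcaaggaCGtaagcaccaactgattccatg

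No 200-bp bin, promoter or gene body differed between AME-d0 and Con-d0 after adjustment. With limma on the log2 ratio of methylated to unmethylated reads, 0 of 182597 bins (0%), 0 of 16685 promoters (0%) and 0 of 14363 gene bodies (0%) had a Benjamini-Hochberg adjusted p under 0.05, and the smallest adjusted p was 0.815, 0.596 and 0.599. At an unadjusted p under 0.05 there were 2709 bins with higher (1.48%) and 7781 with lower (4.26%) methylation in AME-d0. Promoters split into 480 higher (2.88%) and 409 lower (2.45%), and gene bodies into 104 higher (0.724%) and 916 lower (6.38%). A quasi-binomial model of the read counts also called 0 features of each kind, with 6673 bins, 622 promoters and 971 gene bodies at an unadjusted p under 0.05.

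The split between higher and lower features moved with the scale and with the 2 libraries named above. Without AME-d0 replicates 1 and 3 there were 4299 bins higher and 4430 lower, 465 promoters higher and 341 lower, and 242 gene bodies higher and 387 lower at an unadjusted p under 0.05. After each library's mean log2 ratio was subtracted, the split was 4760 against 5141 bins and 363 against 402 gene bodies. With limma on the mean percent of a promoter's CpGs, in place of the log2 ratio of its reads, 298 promoters were higher and 518 lower.

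Groups that did not overlap at all were more often lower than higher in AME-d0. All 5 AME-d0 libraries lay above all 5 Con-d0 libraries in 266 bins (0.146%), 35 promoters (0.21%) and 9 gene bodies (0.0627%), and below them in 1237 bins (0.677%), 93 promoters (0.557%) and 178 gene bodies (1.24%).

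The level of methylation over broad classes of sequence was slightly lower in AME-d0 on average, and the livers of the groups overlapped. Averaged over all 728195 CpGs, the Con-d0 libraries were at 34.0%, 33.9%, 34.0%, 34.1% and 35.4%, and the AME-d0 libraries at 32%, 34.3%, 33.0%, 33.8% and 34.3%. The AME-d0 values reach below the lowest Con-d0 value through replicates 1, 3 and 4, and the other 2 lie among the Con-d0 values. The means were 34.3% ± 0.637 and 33.5% ± 1.0, a difference of -0.802 (exact two-sided permutation test, p = 0.238, adjusted p = 0.246 over 14 contexts), where 5 libraries against 5 cannot give a p below 0.00794. Without AME-d0 replicates 1 and 3 the difference was -0.142 (exact permutation p = 0.964). It was -0.421 without AME-d0 replicate 1 alone and -0.519 without Con-d0 replicate 5 alone (exact permutation p = 0.476 for each). Weighted by reads in place of CpGs it was -2.74 (exact permutation p = 0.0794).

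CpG islands, which held 368483 of the CpGs, were at 5.38% ± 0.0492 in Con-d0 and 5.29% ± 0.0938 in AME-d0. Outside islands and their shores the means were 67% ± 1.32 and 65.4% ± 2.04. CpGs that were 20 to 80% methylated in the other animals at d21 differed by -1.78, the widest gap of the 14 contexts, with 51.7% ± 1.21 in Con-d0 and 49.9% ± 2.03 in AME-d0. That value was also -1.78 when AME-d21 replicate 4 was left out of the level at d21. All 14 contexts were lower in AME-d0, each with an adjusted p of 0.246 by the exact permutation test.

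Weighted by reads, 4 of the 14 contexts had an exact permutation p under 0.05 before adjustment and none after it. Islands differed by -0.819 and CpGs under 20% at d21 by -0.385, both with p = 0.00794 and an adjusted p of 0.0556 (exact permutation test). That is the smallest p these group sizes can give, reached where every AME-d0 library lies below every Con-d0 library. An adjusted p under 0.05 would have needed more contexts at or near that p. CpGs within 1 kb of a TSS differed by -1.03 (exact permutation p = 0.0238) and those in exons by -2.05 (exact permutation p = 0.0317), both with an adjusted p of 0.111.

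**Figure D1:**
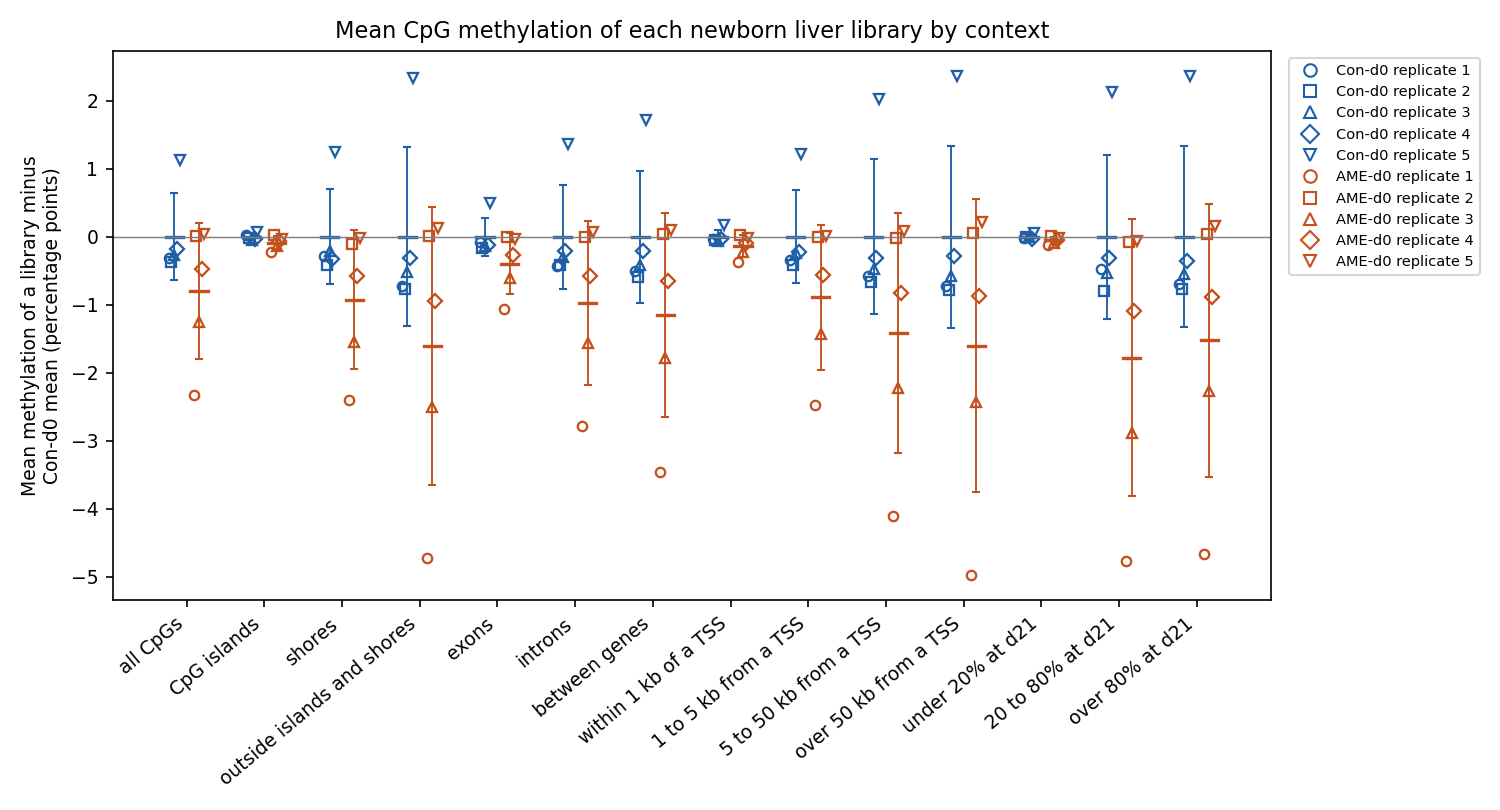
Mean CpG methylation of each newborn liver library in 14 sequence contexts, in percentage points relative to the Con-d0 mean of that context (y axis), with contexts on the x axis. Symbols are single libraries, and bars are group means with SD over 5 libraries. AME-d0 replicate 1 is the lowest library and Con-d0 replicate 5 the highest in all 14 contexts, and the groups overlap in each.

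The order of the libraries was nearly the same wherever it was looked at. AME-d0 replicate 1 was lowest, AME-d0 replicate 3 second lowest and Con-d0 replicate 5 highest in all 14 contexts, and the same held on all 19 autosomes. The difference between the group means ranged from -0.901 to -0.692 over the autosomes. Among the 8829 gene bodies whose mean over the 10 d0 libraries was 20 to 80%, AME-d0 replicate 1 was the lowest of the 10 libraries in 42.7%, AME-d0 replicate 3 in 20.6%, and Con-d0 replicate 5 the highest in 31.5%. The same libraries led among 92968 bins of that level, with 26.5%, 16.3% and 18.8%. Among 2367 promoters the shares were 28.2%, 17.7% and 22.1%.

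**Figure D2:**
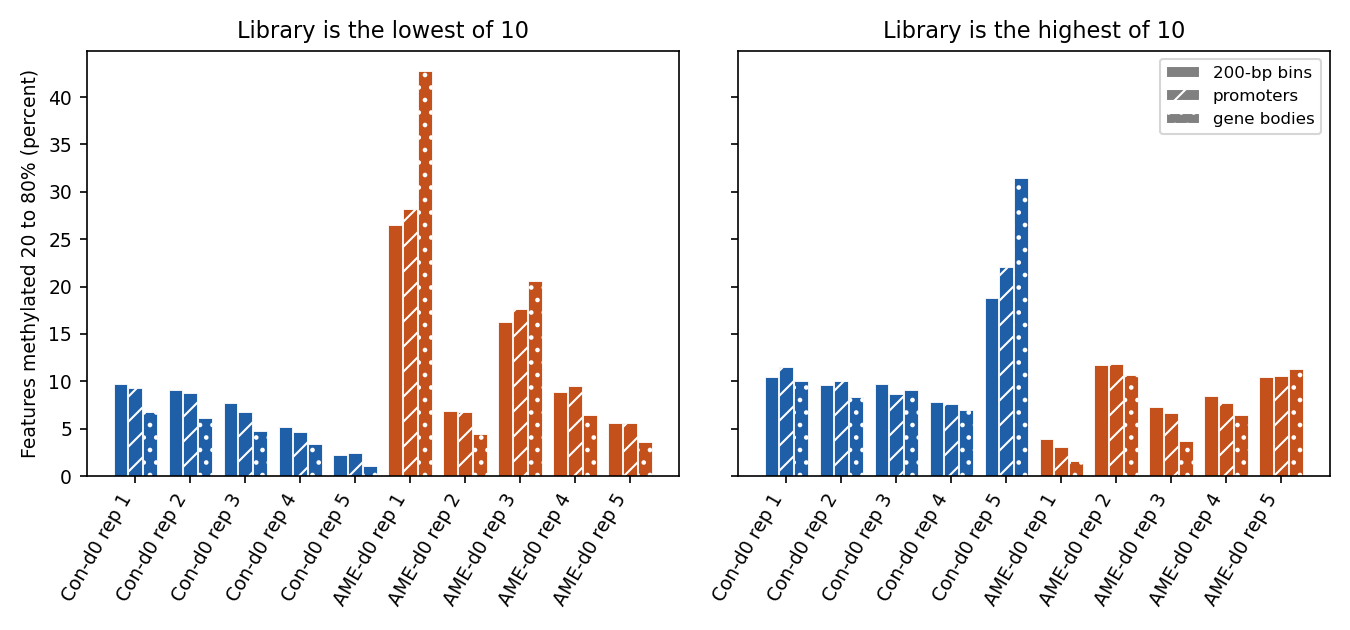
Share of the bins, promoters and gene bodies of 20 to 80% methylation (y axis, percent of features) in which each d0 library (x axis) was the lowest (left) or the highest (right) of the 10. Blue bars are Con-d0 and orange bars AME-d0, and plain, hatched and dotted bars are bins, promoters and gene bodies. AME-d0 replicate 1 is lowest in 42.7% of gene bodies and Con-d0 replicate 5 highest in 31.5%.

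The tilt of single features was also smaller without AME-d0 replicates 1 and 3, and without Con-d0 replicate 5. The median gene body differed by -1.35 points and 75.2% were lower in AME-d0, which became -0.162 and 54.9% without both. For bins the median was -0.391 with 60.2% lower, and -0.0071 with 50.3% lower without both. The median promoter differed by -0.0134 with 54.0% lower, and by 0 with 49.6% lower without both. Without Con-d0 replicate 5 alone the medians were -0.872 for gene bodies (67.8% lower), -0.137 for bins (55.0% lower) and -0.0007 for promoters (50.3% lower). Without AME-d0 replicate 1 alone they were -0.685 (65.5% lower), -0.104 (54.5% lower) and -0.00576 (51.7% lower). The widest medians came without AME-d0 replicate 5 for gene bodies and bins, at -1.76 and -0.592, and without AME-d0 replicate 2 for promoters, at -0.0223.

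The spread between livers of 1 group was close to a binomial counting error in single bins, and above it in gene bodies. That error takes each CpG of a read as a separate count, so it is too small where reads cover several CpGs. The median bin held 2 measured CpGs and the median gene body 12. How much of the excess in gene bodies is spread between livers was not tested. The median SD between libraries of a bin was 4.87 points in Con-d0 and 5.43 in AME-d0, beside 4.63 for binomial counting error alone. For gene bodies the median SD was 2.88 in Con-d0 and 3.48 in AME-d0, beside 2.03 for counting error. The AME-d0 spread was 2.42 for gene bodies and 4.05 for bins without replicates 1 and 3. The AME-d0 SD was more than 2 times the Con-d0 SD in 2421 gene bodies, and the reverse held in 1000. Promoters, which are mostly unmethylated, had median SDs of 0.238 and 0.240.

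A library's mean absolute distance from the median of the 10 libraries over all bins was 4.46, 4.26, 4.12, 3.59 and 4.15 points in Con-d0. It was 5.69, 4.19, 4.93, 4.11 and 3.90 points in AME-d0. The means of 4.12 ± 0.323 and 4.56 ± 0.738 differed by 0.447 (exact two-sided permutation test, p = 0.278). AME-d0 replicates 1 and 3 were the farthest of the 10, and without them the difference was -0.0281 (exact permutation p = 0.857). Correlation of the bin levels between 2 libraries was 0.957 to 0.973 within Con-d0, 0.948 to 0.965 within AME-d0 and 0.947 to 0.971 between the groups, over bins that share their base composition and depth.

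The sizes of difference that these livers allow follow from the intervals. With limma on the mean percent over a feature's CpGs, the 95% interval of the difference lay within 10 points of 0 in 91.5% of promoters, 83.8% of gene bodies and 45.0% of bins. Among features of 10 to 90% methylation these shares were 62.0%, 81.2% and 25.3%, with a median half-width of 6.21 points for promoters, 4.43 for gene bodies and 9.76 for bins. The interval lay wholly beyond 10 points in 86 bins, 0 promoters and 0 gene bodies, without adjustment for the number of features.

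Among the 89588 bins with at least 3 CpGs, 16 were higher and 130 lower in AME-d0 with no overlap between the groups and means at least 10 points apart. Of the 5 in each direction with the smallest unadjusted p, 9 are described here, and all 9 had an adjusted p of 0.846 by limma, so that none of their differences passed the test. Intervals here and below are 95% intervals of limma for the difference of the mean percent over CpGs, each CpG counted alike. Where that difference is not the one by reads, it is given with the interval.

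The Cdh13 intron bin was methylated at 64.2, 72.4, 74.7, 72.4 and 72.2% in Con-d0 and at 83.3, 87, 90.2, 84.1 and 81.8% in AME-d0. Every AME-d0 liver was thus above every Con-d0 liver, and Con-d0 replicate 1 was the lowest. Its 3 measured CpGs had 17 to 35 reads each per library, which sum to 51 to 105. The difference was 14.1 points (interval 8.98 to 19.3). The bin upstream of Cux2 was the least methylated of the 9, at 40.7, 33.3, 25.8, 31.4 and 33.3% in Con-d0 and 48.3, 44.4, 57.1, 48.6 and 53.3% in AME-d0. The groups did not overlap there, and the difference of 17.5 points (interval 10.3 to 24.6) was the widest of the 9. A further 2 higher bins were outside annotated genes, at chr5:54144001-54144200 nearest to Gm15820, with 79.9% ± 5.52 against 92.8% ± 3.76, and at chr3:42708601-42708800 nearest to Gm38044, with 76% ± 5.47 against 86.5% ± 2.26.

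The bin near Olfr867 had the smallest unadjusted p of the named bins, with 92.2, 97.1, 97.3, 93.8 and 90.8% in Con-d0 and 81.7, 81.1, 86.7, 81 and 83.6% in AME-d0. No AME-d0 liver reached the lowest Con-d0 liver, and the difference was -11.4 points (interval -15.2 to -7.72). The bin in Mks1 held 9 measured CpGs with 11 to 36 reads each, which sum to 137 to 317 per library. It was at 92.8, 89.5, 88.8, 89.2 and 82% in Con-d0 and 77.2, 74.8, 78.8, 80.5 and 75.2% in AME-d0. Con-d0 replicate 5 and AME-d0 replicate 4 came closest to each other there. At d21 the same bin was at 90.5% ± 3.27 in Con and 91.5% ± 7.07 in AME, or 90.8% ± 7.99 (n = 4) without AME-d21 replicate 4, in other animals.

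In the Dgkz intron, whose nearest TSS is that of Mdk, a heparin-binding growth factor, the levels were 85.7, 84, 74.6, 81.5 and 84.6% in Con-d0 and 71.2, 68.9, 64.7, 62.7 and 68.8% in AME-d0. The difference was -14.8 points by reads and -15 as a mean over CpGs (interval -20.5 to -9.43), and AME-d0 replicate 1 was the highest of the AME-d0 livers. At d21 this bin was at 85.4% ± 9.45 in Con and 80.8% ± 4.05 in AME, or 82.3% ± 2.78 without AME-d21 replicate 4. A bin on an exon of Gm4316 near Dpep1, a membrane dipeptidase, at chr8:123178401-123178600, was at 86.8% ± 2.19 against 73.1% ± 4.08. The fifth, outside annotated genes near Gm22271 at chr19:56269001-56269200, was at 90.7% ± 1.29 against 78.2% ± 6.58, with AME-d0 replicate 3 far below the rest at 66.7%. Without AME-d0 replicates 1 and 3 its difference was -9.56 in place of -12.5. The 9 bins were chosen for groups that did not overlap, so leaving out libraries cannot change the sign of a difference.

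**Figure D3:**
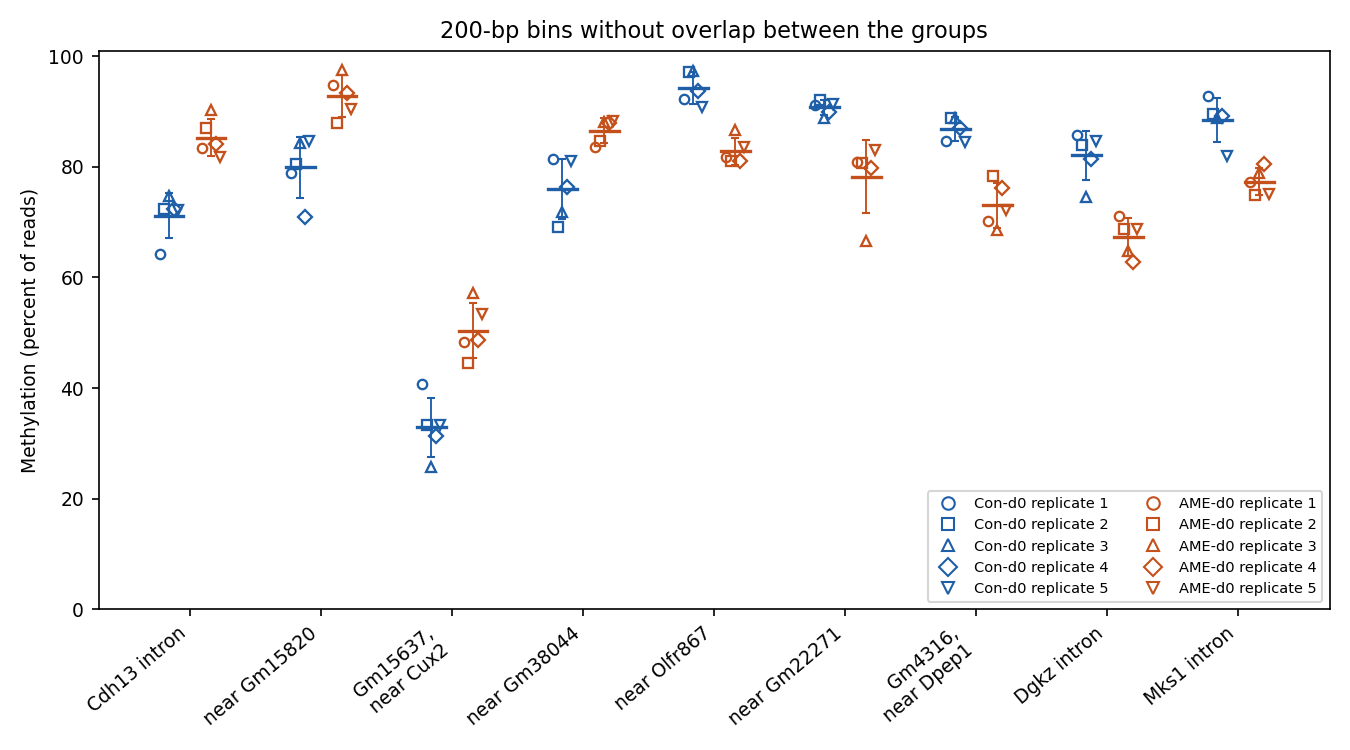
Methylation of the 9 named 200-bp bins (x axis) in each d0 library (y axis, percent of reads methylated, symbols by replicate), with group means and SD over 5 libraries as bars. The groups do not overlap in any of the 9 bins, which is how the bins were chosen; the widest gap, 17.5 points, is upstream of Cux2. Intron labels follow the first measured CpG of a bin.

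Promoters with at least 10 points between non-overlapping groups numbered 2 of 16685, both lower in AME-d0. The promoter of Gm28323, annotated as an RNA gene within an intron, at chr1:51878608-51880608, was methylated at 26.1, 22.9, 20, 22.8 and 17.9% in Con-d0 and 14.8, 7.41, 10, 10.3 and 9.76% in AME-d0. Its difference was -11.5 points (interval -15.5 to -7.43; adjusted p = 0.733, limma), and no AME-d0 liver reached the Con-d0 range. The second was the promoter of the antisense gene Gm15941, at 53.9% ± 4.06 against 41.9% ± 3.72 over 4 CpGs, which are also the CpGs counted for the body of the overlapping gene 4930447A16Rik. Its adjusted p was 0.864 by limma.

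Gene bodies that met the same conditions numbered 2 higher and 7 lower, of 14363 tested. The long RNA gene Gm6213 was at 43.1, 52.9, 48.5, 53.7 and 54.4% in Con-d0 and 60.7, 58.2, 65.8, 66.2 and 66.2% in AME-d0, with all AME-d0 livers above all Con-d0 livers and a difference of 12.9 points. Klhl21, which encodes an adaptor of a Cul3 ubiquitin ligase that acts in cell division, was at 23.5, 18.7, 27.1, 22.5 and 29.6% in Con-d0 and 31.1, 38.9, 37.5, 31.8 and 41% in AME-d0. The groups did not overlap, with a difference of 11.8 points over the summed reads of its 8 CpGs, whereas the mean of the CpG percents differed by 3.41 (interval 1.68 to 5.14). Among the lower bodies, Icosl, the ligand of the T cell costimulator Icos, was at 74.6% ± 4.24 against 63.2% ± 2.88. Timd2, a membrane receptor that binds ferritin, was at 77% ± 3.73 against 66.3% ± 4.66. Platr25 was at 76.8% ± 3.66 against 66.5% ± 3.63 and Gm11733 at 79.8% ± 4.1 against 69.4% ± 2.87. The adjusted p was 0.599 for each of these gene bodies by limma. They too were chosen for groups that did not overlap, so the sign by reads cannot change when libraries are left out.

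The 26 gene lists of liver metabolism, signalling and cell types held 319 genes with a measured body and 263 with a measured promoter, and none passed the adjusted p. Of the 319 bodies 258 (80.9%) were lower in AME-d0, beside 75.2% of all gene bodies. At an unadjusted p under 0.05, 25 list bodies (7.84%) were lower and 2 (0.627%) higher, close to the 6.38% and 0.724% of all bodies. Of the 263 promoters 129 (49.0%) were lower, beside 54.0% of all promoters. At that p 11 list promoters (4.18%) were lower and 6 (2.28%) higher, beside 2.45% and 2.88% of all promoters. The median gene body difference was below 0 in 25 of the 26 lists, and in 16 without AME-d0 replicates 1 and 3, when it ranged from -1.57 to 1.97. Without 1 library the count of such lists was 22 to 25, and the share of the 319 bodies that were lower was 69.3% (without AME-d0 replicate 1) to 84.0%, with 70.2% without Con-d0 replicate 5.

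Genes of fatty acid and triglyceride synthesis had bodies that were lower in AME-d0 in 17 of 20 cases, with a median of -2.49 points, beside -1.35 over all bodies. Without AME-d0 replicates 1 and 3 the list's median was -0.467, with 12 of 20 lower and 0 at an unadjusted p under 0.05 by limma. The bodies of Pnpla3, a lipid droplet protein tied to fatty liver, and Mlxipl, the glucose-sensing factor ChREBP, were lower and that of Lpin2, a phosphatidate phosphatase, higher at that p with all libraries. Pnpla3 was at 63.5, 66.4, 58.6, 67.1 and 63.9% in Con-d0 and 48.8, 64.5, 59.1, 54.6 and 54.1% in AME-d0. AME-d0 replicate 1 was lowest there and AME-d0 replicates 2 and 3 lay within the Con-d0 range (difference -7.67, adjusted p = 0.675, limma).

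The 2 enzymes that commit acetyl-CoA to fatty acids, Acaca and Fasn, had almost unmethylated promoters in both groups. The Fasn promoter, over 85 CpGs, was at 0.101, 0.036, 0.212, 0.186 and 0.337% in Con-d0 and 0.242, 0.0977, 0.121, 0.385 and 0.211% in AME-d0. Values this low lie at the level of the mitochondrial reads, of which 0.144% to 0.311% were counted as methylated. The Fasn body was at 79.1% ± 3.23 against 76.2% ± 4.06, a difference of -2.92 that was -0.28 without AME-d0 replicates 1 and 3. The Acaca body was at 34% ± 4.7 against 29.9% ± 4.87, and the difference of -4.13 was -1.25 as a mean over CpGs. Lpin1, another phosphatidate phosphatase, was at 36.9% ± 2.35 against 35.3% ± 4.5 in its body, with the difference of -1.66 turning to 1.39 without AME-d0 replicates 1 and 3.

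Fatty acid oxidation and ketogenesis had 8 of 13 bodies lower and a median of -0.526, which turned to 0.0402 without AME-d0 replicates 1 and 3. Promoters of this list were lower in 2 of 14 cases, with a median of 0.0455. The promoter of Cpt1a, which lets long-chain fatty acids into mitochondria, was at 3.7, 3.73, 15.3, 6.11 and 3.02% in Con-d0 and 5.38, 3.51, 3.59, 7.26 and 2.44% in AME-d0. Con-d0 replicate 3 was far above the other 9 libraries, which overlapped. Acsl1, which activates fatty acids, was at 73.6% ± 1.4 against 70.7% ± 2.42 in its body.

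Of the 63 genes that the study lists for fatty liver at d0, 49 bodies were measured, of which 44 were lower, 7 of them (Abca1, Gclc, Lipa, Tgm2, Aldh4a1, Aldh1a2 and Corin) at an unadjusted p under 0.05. Of all bodies 75.2% were lower, and 6.38% were lower at that p. The study drew that list from these animals, so it is no independent evidence of a direction. The median of the 49 was -1.93, and without AME-d0 replicates 1 and 3 it was -0.0613 with 25 lower, 3 of them at an unadjusted p under 0.05. Lipa, the lysosomal acid lipase, was at 55.9, 66.7, 59.3, 52.5 and 66.3% in Con-d0 and 44.2, 49.4, 38.6, 50 and 53.4% in AME-d0 over 3 CpGs. Con-d0 replicate 4 and AME-d0 replicate 5 overlapped, and the difference was -13 by reads (adjusted p = 0.675, limma) and -12.4 as a mean over CpGs (interval -20.6 to -4.32). Corin, a serine protease that processes natriuretic peptides, was at 44.2% ± 7.95 against 33.5% ± 8.34.

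Glucose and glycogen metabolism had 7 of 9 bodies lower, with a median of -2.42, and -0.196 without AME-d0 replicates 1 and 3. Promoters of this list were lower in 5 of 12 cases, with a median of 0.0076. The body of Fbp1, fructose bisphosphatase of gluconeogenesis, was at 48.1, 36.8, 41.4, 48.1 and 45.1% in Con-d0 and 32, 36.2, 31.4, 34.1 and 36.1% in AME-d0. The groups did not overlap, and the difference was -9.93 by reads (adjusted p = 0.639, limma) and -8.48 as a mean over CpGs (interval -13.8 to -3.2). Its promoter, over 3 CpGs, was at 65.6% ± 5.09 against 59.4% ± 7.25, and that of Pck1, the enzyme that makes phosphoenolpyruvate, at 57.6% ± 4.45 against 50.6% ± 5.28. At d21 the Pck1 promoter was at 25.2% ± 4.21 in Con and 27.3% ± 8.22 in AME, or 30.0% ± 6.56 without AME-d21 replicate 4. Pygl, liver glycogen phosphorylase, was at 33% ± 6.82 against 26.4% ± 5.89 in its body, with a difference of -6.6 by reads and -2.05 as a mean over CpGs.

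**Figure D4:**
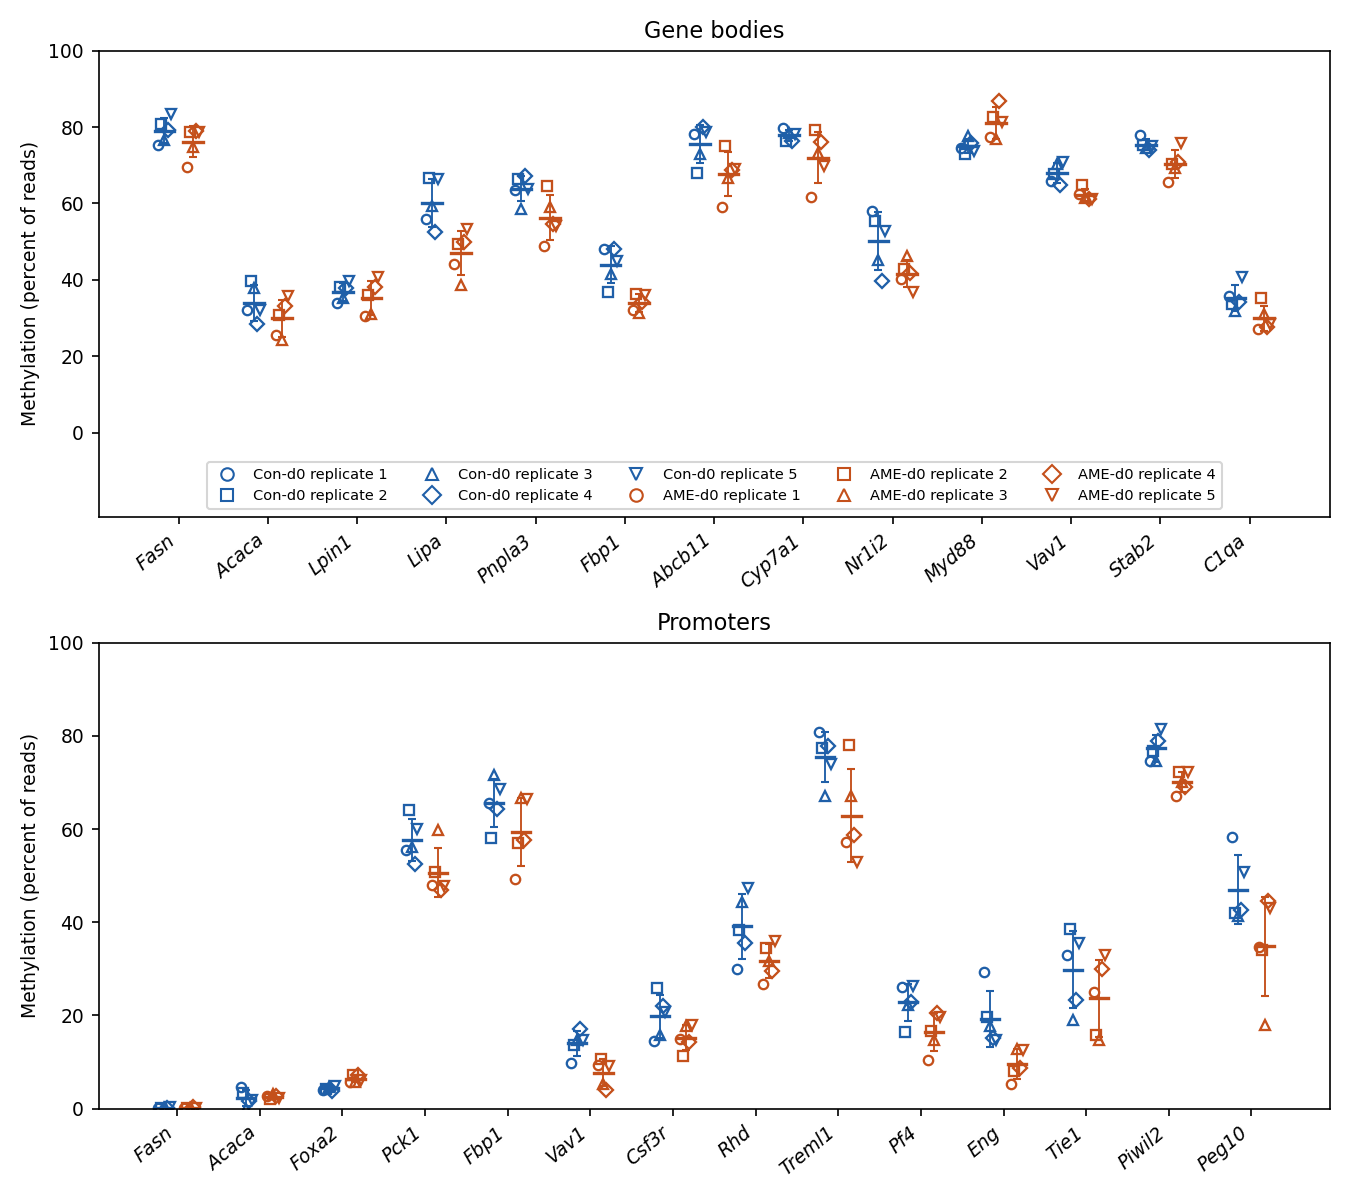
Methylation of 13 named gene bodies (top) and 14 named promoters (bottom) in each d0 library (y axis, percent of reads methylated, symbols by replicate), with group means and SD over 5 libraries as bars. Most groups overlap; Fbp1 and Vav1 among the gene bodies and Foxa2, Eng and Piwil2 among the promoters do not.

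All 10 measured bodies of bile acid synthesis and transport were lower in AME-d0, with a median of -1.95, and 7 were lower without AME-d0 replicates 1 and 3, with a median of -1.16. Abcb11, the bile salt export pump, was at 78.2, 68, 72.9, 80 and 78.8% in Con-d0 and 59, 75, 66.7, 68.8 and 69% in AME-d0. AME-d0 replicate 1 was the lowest library, and replicate 2 lay among the Con-d0 values (difference -7.89, -4.65 without AME-d0 replicates 1 and 3). Cyp7a1, the rate-limiting enzyme of bile acid synthesis, was at 77.9% ± 1.5 against 72% ± 6.79, and AME-d0 replicate 1, at 61.7%, was below every other library. In cholesterol synthesis, uptake and efflux 12 of 16 bodies were lower, with a median of -1.22, and 8 without AME-d0 replicates 1 and 3, with a median of -0.204. Mvk, mevalonate kinase, was at 82.7% ± 3.82 against 77.4% ± 6.69, and Abcg5, a sterol exporter, at 40.8% ± 6.28 against 36% ± 2.81.

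Among liver transcription factors, 3 of 11 promoters (Foxa2, Gata6 and Onecut1) were higher and 1 (Tbx3) lower at an unadjusted p under 0.05, beside 2.88% and 2.45% of all promoters. With AME-d0 replicates 1 and 3 left out, 1 was higher and 1 lower at that p. The promoter of Foxa2, a pioneer factor of the liver, was at 3.98, 4.3, 4.69, 3.83 and 4.91% in Con-d0 and 5.71, 7.29, 5.66, 7.16 and 6.17% in AME-d0. No AME-d0 liver overlapped with Con-d0, and the difference was 2.06 points (adjusted p = 0.891, limma), or 1.15 with CpGs of at least 5 reads. The Tbx3 promoter was at 1.35, 0.958, 1.24, 2.38 and 0.49% and 0.356, 0, 0, 0.278 and 0%, with no overlap and an adjusted p of 0.596 by limma. At d21 the Foxa2 promoter was at 6.39% ± 1.79 in Con and 7.51% ± 1.44 in AME, or 7.46% ± 1.66 without AME-d21 replicate 4.

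Of the bodies of liver transcription factors 14 of 18 were lower, with a median of -1.06, and 11 without AME-d0 replicates 1 and 3, with a median of -0.172. Nr1i2, the xenobiotic receptor PXR, was at 50.2% ± 7.57 against 41.6% ± 3.48. Hnf4a, a nuclear receptor that sustains hepatocyte genes, was at 66.8% ± 5.51 against 62.8% ± 7.87 with wide overlap. Foxa3 had a promoter at 5.27% ± 0.904 against 3.81% ± 0.963, and the difference of -1.46 by reads was -0.501 as a mean over its 44 CpGs.

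In insulin and growth factor signalling 13 of 18 bodies were lower (median -1.43), and 10 without AME-d0 replicates 1 and 3 (median -0.149). Promoters of this list were lower in 6 of 15 cases (median 0.00701). Grb10, an imprinted adaptor that restrains insulin signalling, was the 1 body under an unadjusted p of 0.05 with all libraries. The Akt2 promoter, of the insulin-responsive kinase, was at 0.315, 0.871, 0.487, 0.327 and 0.499% in Con-d0 and 0, 0.154, 0, 0 and 0.204% in AME-d0. These groups did not overlap, at levels near those of the mitochondrial reads (adjusted p = 0.811, limma). Ghr, the growth hormone receptor, was at 42.7% ± 4.09 against 35.7% ± 9.41 in its body, where AME-d0 replicate 3 was at 21.5%. Its difference was -7.03 by reads, -0.824 as a mean over CpGs and -1.01 without AME-d0 replicates 1 and 3. The promoter of Klb, the co-receptor of Fgf21, overlapped widely, at 48.8% ± 3.55 against 48.4% ± 3.79.

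All 10 bodies of glucocorticoid and stress hormone signalling were lower, with a median of -2.46, which became -0.165 with 6 lower without AME-d0 replicates 1 and 3. Sgk1, a kinase induced by glucocorticoids, was at 35.6% ± 2.16 against 32% ± 4.82 over 108 CpGs of its body, a difference of -3.59 and of -0.427 without those libraries. Srd5a1, a steroid reductase that clears glucocorticoids, was at 73.4% ± 2.23 against 69.2% ± 3.01. Its difference of -4.24 was -1.92 as a mean over CpGs.

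Inflammatory signalling had 10 of 12 bodies lower with a median of -1.83, which turned to 1.08 with 4 lower without AME-d0 replicates 1 and 3. Myd88, the adaptor of Toll-like receptors, was at 74.5, 73, 77.8, 75.8 and 73.9% in Con-d0 and 77.3, 82.7, 76.9, 86.9 and 81.3% in AME-d0, over 3 CpGs. Con-d0 replicate 3 overlapped with AME-d0 replicates 1 and 3, and the difference was 6.05 (adjusted p = 0.675, limma). Lbp, which binds bacterial lipopolysaccharide, was lower at 74.3% ± 3.93 against 69% ± 3.12, and its difference of -5.29 was -1.32 with CpGs of at least 20 reads. Promoters of this list were lower in 3 of 9 cases, with a median of 0.0067. The promoter of the death receptor gene Fas, from the study's fatty liver list, was at 13.9% ± 2.17 against 11% ± 2.85. Its difference of -2.93 by reads was -1.28 without AME-d0 replicates 1 and 3.

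The 18 measured bodies of DNA methylation and the one-carbon cycle were all lower, with a median of -1.65, and 10 were lower without AME-d0 replicates 1 and 3, with a median of -1.24. Mtr, methionine synthase, was at 80.2% ± 4.2 against 74.8% ± 6.06 in its body. Promoters of this list were lower in 6 of 16 cases, with a median of 0.00797. The promoter of Mtrr, which reactivates Mtr, was at 0.502, 0.389, 0.364, 0.759 and 0.196% in Con-d0 and 0, 0, 0.119, 0.0995 and 0.111% in AME-d0, without overlap and near the level of the mitochondrial reads (adjusted p = 0.596, limma). With CpGs of at least 20 reads that difference was -0.0331 in place of -0.376.

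Markers of blood cells gave the lowest median of the gene bodies of any list, with 10 of 11 bodies of haematopoietic progenitor and myeloid markers lower and a median of -3.69. Itgb2 and Itgam, subunits of a leukocyte integrin, Prtn3, a protease of neutrophil granules, and Vav1, an exchange factor of blood cells, were lower at an unadjusted p under 0.05. Without AME-d0 replicates 1 and 3 the list had 9 of 11 lower, 1 at that p, and a median of -0.928. Whether the share of blood cells differed between the livers was not tested.

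The Vav1 promoter was at 9.75, 13.7, 14.8, 17.1 and 14.7% in Con-d0 and 9.43, 10.7, 5.35, 4.0 and 9.23% in AME-d0. Con-d0 replicate 1 overlapped with AME-d0 replicate 2, and the difference was -6.29 by reads (adjusted p = 0.849, limma) and -6.21 as a mean over CpGs (interval -9.99 to -2.43). By reads it was -6.06 without AME-d0 replicates 1 and 3. At d21 it was at 37.0% ± 4.26 in Con and 38.5% ± 2.71 in AME, or 38.6% ± 3.13 without AME-d21 replicate 4. The Vav1 body was at 65.9, 67.7, 70.4, 64.9 and 70.9% and 62.6, 64.9, 61.4, 61.1 and 61.2%, where the lowest Con-d0 and the highest AME-d0 liver were level to 3 digits. That difference was -5.7 by reads and -2 as a mean over CpGs. Prtn3 was at 21.3% ± 0.794 against 17.6% ± 2.27, Itgb2 at 72.3% ± 2.44 against 66% ± 5.46 and Itgam at 73.3% ± 2.98 against 67.5% ± 3.58. The promoter of Csf3r, the receptor of granulocyte colony-stimulating factor, was at 19.8% ± 4.65 against 15.3% ± 2.73. Haematopoietic progenitor and myeloid promoters were lower in 5 of 8 cases, with a median of -0.0547.

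Erythroid markers had 9 of 11 bodies lower, with a median of -1.24, near that of all bodies, and 7 without AME-d0 replicates 1 and 3, with a median of -0.822. Erythroid promoters were lower in 4 of 8 cases, with a median of -0.022. Rhd, a blood group protein of red cells, was at 69.3% ± 4.04 against 63.1% ± 4.37 in its body, where AME-d0 replicate 3 was at 55.4%, and at 39.1% ± 6.96 against 31.7% ± 3.68 in its promoter. The body's difference of -6.2 by reads was -1.46 as a mean over CpGs, and the promoter's -7.43 was -19.7 with CpGs of at least 20 reads. Of 4 platelet and megakaryocyte promoters 3 were lower, with a median of -5.60, and -2.83 without AME-d0 replicates 1 and 3. Treml1, a receptor of platelet granules, was at 81, 77.4, 67.1, 77.9 and 74% in Con-d0 and 57.1, 78.1, 67.2, 58.8 and 53% in AME-d0. AME-d0 replicate 2 was above all Con-d0 livers but replicate 1. The promoter of Pf4, platelet factor 4, was at 22.8% ± 3.97 against 16.4% ± 4.05.

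Among markers of the other liver cells, endothelial bodies were lower in 10 of 12 cases with a median of -1.91, and 0.0624 without AME-d0 replicates 1 and 3. Endothelial promoters were lower in 2 of 6 cases, Eng and Tie1, with a median of 0.264. Without AME-d0 replicates 1 and 3 it was 3 of 6, with a median of 0.0283. The promoter of Eng, an endothelial co-receptor of the TGF-beta family, was at 29.3, 19.6, 17.6, 15.2 and 14.7% in Con-d0 and 5.19, 8.15, 12.8, 8.78 and 12.6% in AME-d0. The groups did not overlap there, and the difference was -9.77 by reads (adjusted p = 0.838, limma) and -9.74 as a mean over CpGs (interval -16.4 to -3.12). By reads it was -9.42 without AME-d0 replicates 1 and 3. At d21 the Eng promoter was at 44.2% ± 3.99 in Con and 48.3% ± 5.17 in AME, or 47.4% ± 5.48 without AME-d21 replicate 4. Stab2, a scavenger receptor of sinusoidal endothelium, was at 75.4% ± 1.51 against 70.4% ± 3.68 in its body, and Tie1, an endothelial kinase, at 29.8% ± 8.33 against 23.7% ± 8.23 in its promoter.

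All 4 Kupffer cell bodies were lower, with a median of -2.02, and 2 without AME-d0 replicates 1 and 3. C1qa, a chain of complement C1q, was at 35.2% ± 3.31 against 29.9% ± 3.35. Cholangiocyte markers had 5 of 9 bodies lower with a median of -0.512, and stellate cell markers 5 of 9 with a median of -0.0035. Without AME-d0 replicates 1 and 3 these medians turned to 0.594 and 0.068. Sctr, the secretin receptor of bile duct cells, was at 64.9% ± 2.08 against 59% ± 3.75 in its body and at 2.01% ± 0.935 against 0.505% ± 0.48 in its promoter. Cholangiocyte promoters were lower in 3 of 6 cases, with a median of -0.0396. B cell markers had 5 of 7 bodies lower, with a median of -2.20, and of 1.19 without those libraries. Hepatocyte markers had 8 of 10 bodies lower with a median of -1.32, which turned to 1.12 with 4 lower without AME-d0 replicates 1 and 3. The promoter of F2, prothrombin, was at 64.6% ± 5.2 against 60.1% ± 1.38.

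Imprinted genes, whose 2 parental copies differ in methylation, had 22 of 25 bodies lower with a median of -1.91, and 11 of 19 promoters lower with a median of -2.45. Leaving out AME-d0 replicates 1 and 3, 13 bodies were lower with a median of -0.172 and 12 promoters with a median of -0.774. The Peg10 promoter was at 58.3, 41.9, 41.3, 42.7 and 50.8% in Con-d0 and 34.7, 34, 17.9, 44.5 and 43.1% in AME-d0. AME-d0 replicate 3 was far below the other livers, and the difference of -12.2 was -6.49 without AME-d0 replicates 1 and 3. The promoter of Sgce, also in this list, holds the same 13 CpGs, so these values enter the list 2 times. Dlk1 was at 42.4% ± 12 against 33.5% ± 9.22 and H19 at 61.2% ± 7.38 against 55% ± 8.21 in their bodies, with wide overlap. Germline genes, whose promoters are methylated in somatic cells, had 8 of 11 promoters lower with a median of -1.58, which became -0.0619 with 6 lower without AME-d0 replicates 1 and 3. That of Piwil2, a protein of the piRNA pathway, was at 74.7, 76.8, 74.6, 79 and 81.5% and 67.2, 72.3, 70.2, 69 and 72.2%, without overlap (difference -7.16, adjusted p = 0.895, limma).

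Bodies of circadian clock genes were lower in 15 of 16 cases with a median of -1.59, which became -0.341 with 11 lower without AME-d0 replicates 1 and 3. Those of cytochrome P450 and conjugation genes were lower in 2 of 6, with a median of 0.856, and in 0 of 6 without those libraries, with a median of 1.97. Those of housekeeping genes were lower in 6 of 9 with a median of -0.0808. The housekeeping promoters, which are close to unmethylated, were lower in 1 of 11.

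**Figure D5:**
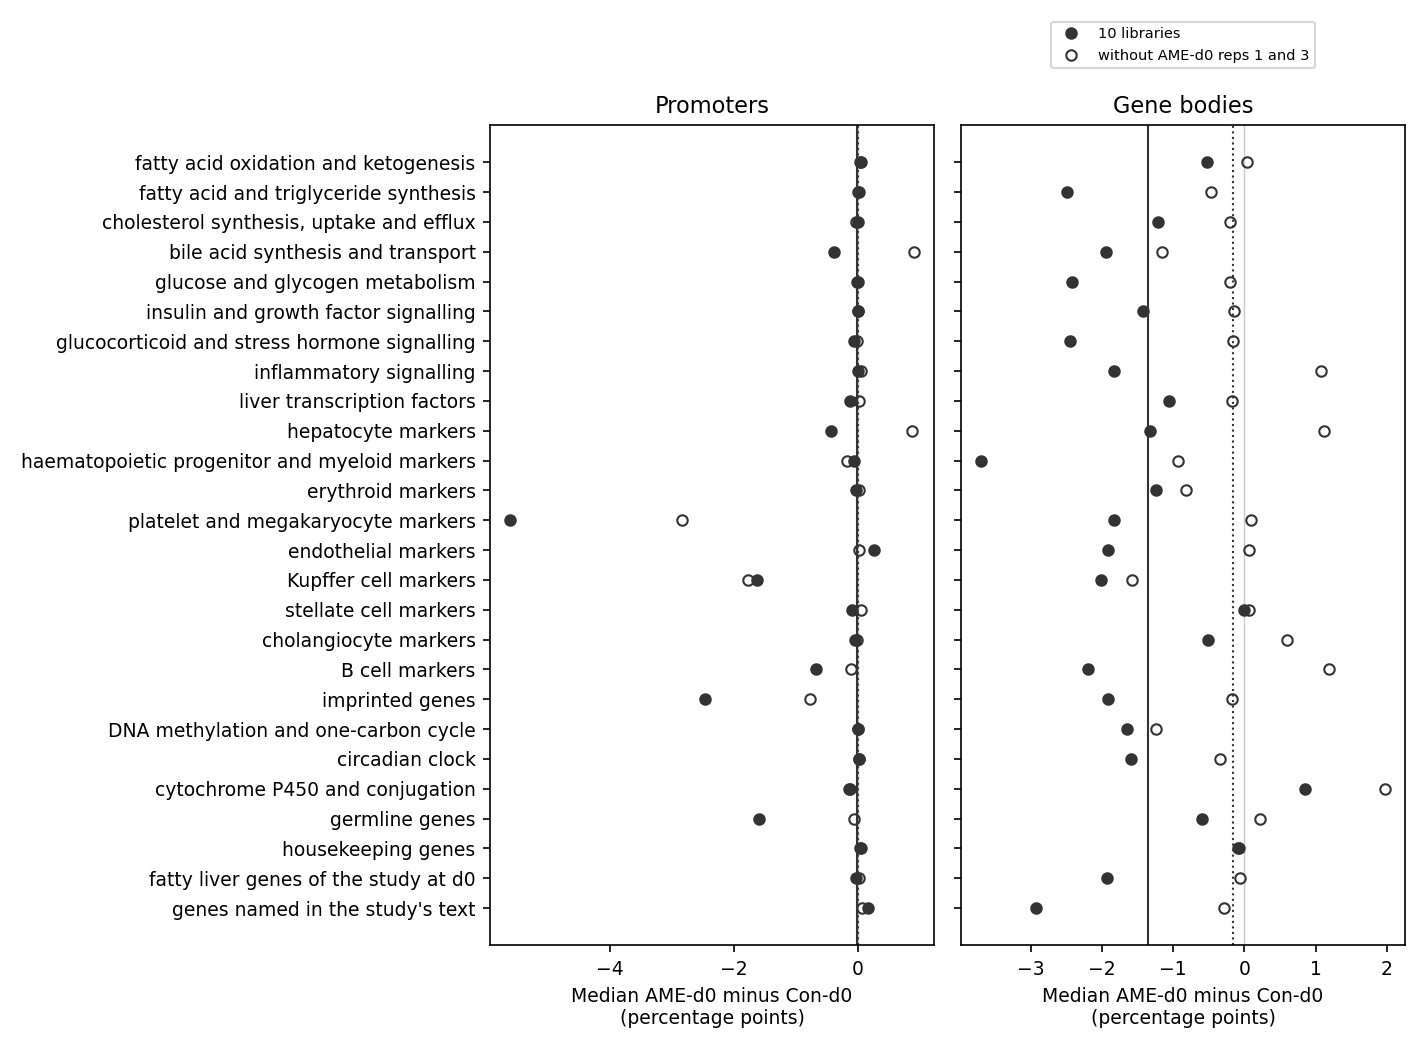
Median AME-d0 minus Con-d0 difference over the measured members of each gene list (x axis, percentage points), for promoters (left) and gene bodies (right). Filled circles use 10 libraries and open circles leave out AME-d0 replicates 1 and 3; the solid and dotted lines are the medians over all features tested. For gene bodies the filled circles scatter around -1.35, and most open circles lie nearer to 0.

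Features that spread most within a group were scattered over both groups. The promoter of Gm27568 was at 39.6, 75.8, 19.6, 36.9 and 28.2% in Con-d0 and 38.8, 27.5, 60, 67.6 and 29.9% in AME-d0. The gene body of Zfyve21 was at 55.1% ± 17.2 against 50.6% ± 6.37, that of Oas1a, an interferon-induced enzyme, at 70.6% ± 8.16 against 70.2% ± 16.3, that of Bhmt2, a methyltransferase of homocysteine, at 81.3% ± 11 against 75% ± 15.3, and that of Pck2, mitochondrial phosphoenolpyruvate carboxykinase, at 70.1% ± 15.4 against 67.3% ± 13.1. The promoters of Gm18092 and Zfp180 were at 74% ± 16.5 against 72.4% ± 5.71 and 31.6% ± 8.02 against 33.6% ± 17.2.

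Whether the AME difference at d0 differed from that at d21 was tested with an interaction term in limma over all 20 libraries. It called 0 of 153940 bins, 0 of 15392 promoters and 0 of 13245 gene bodies, with 7878, 776 and 842 at an unadjusted p under 0.05. The groups at the 2 ages are different animals. Of the 3740 bins that differed at d0 by at least 10 points at an unadjusted p under 0.05, 1886 (50.4%) had the same direction at d21, beside 48.7% of all bins measured at both ages. For gene bodies it was 16 of 36 (44.4%), beside 49.3% of all. Without AME-d21 replicate 4 the interaction also called 0 features, and the same direction was held by 1833 of the bins (49.0%, beside 48.3% of all) and 12 of the gene bodies (33.3%, beside 48.0% of all). No test of these shares was made.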

How the data were processed

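RRBS of ground liver was made by the study with MspI and read as paired ends. For each library the authors deposited, per CpG, the methylated and unmethylated read counts, the total and the percent methylated. The deposited counts are raw and start at 1 read. For tools, the submitters' processing notes give BWA, Bismark, Trim Galore and FastQC, with the build mm10 and no versions. Removal of duplicates is not stated, so counting errors cover reads at CpGs, not molecules.

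Positions that are a CG in GRCm38 on the 19 autosomes with at least 10 reads in all 10 d0 libraries were kept. Genes came from GENCODE M21. CpG islands were called in windows of 500 bp (G+C of 55% or more, CpG observed to expected 0.65 or more), with 2 kb beside them as shores. Overlapping genes share CpGs. Features were tested with limma 3.58.1 (R 4.3.3) on log2((methylated + 1)/(unmethylated + 1)), Benjamini-Hochberg over all features, called at an adjusted p under 0.05. Contexts were compared with exact permutation tests (Python 3.11.15, numpy 2.4.6, scipy 1.17.1, pandas 2.3.3, matplotlib 3.10.9). Scripts were tested on simulated data.

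Named were the features with non-overlapping groups and means at least 10 points apart (up to 5 per direction and kind, bins with at least 3 CpGs), from each list of 482 genes in all those called or else the 2 with the widest difference, the genes that the study's text names, and the most variable promoters and gene bodies. Members, lists and tests were chosen with earlier results of these data known. The gene bodies and promoters named at an unadjusted p under 0.05, Nupl1, Gm49384 and Gm49336 were added after their values were seen. Alternatives were other coverage minimums, a quasi-binomial model, percent methylation, other bins and windows, the replicate number as a block, and each library left out in turn. Added after seeing the data were leaving out AME-d0 replicates 1 and 3 together, library weights, centred libraries, list medians with 1 library left out, and levels at d21 without AME-d21 replicate 4. A few features that the rule names are not reported here. RNA-seq of the study was not analysed here.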

Additional observations from a re-analysis of the deposited data

Results flagged for a closer look

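Con-d0 replicate 5 stood apart from the other 4 Con-d0 livers in 12 of the 14 contexts, always as the highest by more than Dixon's 95% value. It was at 35.4% over all CpGs (others 33.9% to 34.1%), 39.4% in shores, 69.4% outside islands and shores, 21.3% in exons, 40.5% in introns and 48.3% between genes. By distance to the TSS it was at 6.12% within 1 kb, 38.7% at 1 to 5 kb, 63.0% at 5 to 50 kb and 70.4% beyond 50 kb. It was at 53.8% in the CpGs of 20 to 80% methylation at d21 and at 83.4% in those over 80%. The contexts overlap in their CpGs, so these are not separate observations.

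Of 162 groups of 5 libraries at the named features, 9 held 1 library apart by the same measure, where chance gives about 1 in 20. In the Cdh13 intron bin Con-d0 replicate 1 was at 64.2% (others 72.2% to 74.7%), and in the bin near Gm22271 AME-d0 replicate 3 was at 66.7% (others 79.7% to 83.1%). Among promoters, Cpt1a was at 15.3% in Con-d0 replicate 3 (others 3.02% to 6.11%), Fas at 10.1% in Con-d0 replicate 5 (others 14.2% to 15.2%) and Nupl1 at 0.0288% in Con-d0 replicate 5 (others 0). Among gene bodies, Gm49384 was at 0.230% in AME-d0 replicate 5 (others 0), Gm11733 at 87.1% in Con-d0 replicate 1 (others 77.7% to 78.3%), Rhd at 55.4% in AME-d0 replicate 3 (others 64.6% to 65.8%) and Bhmt2 at 48.5% in AME-d0 replicate 1 (others 75.7% to 85.9%).

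Mitochondrial reads were outside the comparisons. They made up 0.189% of the reads of AME-d0 replicate 4, above the 0.0892% to 0.144% of the Con-d0 libraries. The share of them counted as methylated was 0.311% in AME-d0 replicate 5, above the 0.144% to 0.280% of Con-d0.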

How the results depend on the processing

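Calls of 0 held under 65 of 67 alternative counts. Leaving out 1 library gave 0 to 2 called promoters and 0 to 1 called gene bodies, and 0 bins. The 2 promoters, called without AME-d0 replicate 1, were Nupl1 and the overlapping Gm49336, which share 79 CpGs, at 0, 0, 0, 0 and 0.0288% in Con-d0 and 0, 0.227, 0.161, 0.124 and 0.132% in AME-d0 (adjusted p 0.0488 without that library and 0.811 with all, limma). The gene body, called without AME-d0 replicate 5, was Gm49384, at 0.141, 0.124, 0.139, 0.246 and 0.185% and 0, 0, 0, 0 and 0.23% (adjusted p 0.0187 and 0.675). Both lie at the level of the methylated mitochondrial reads.

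Library weights gave 10147 bins, 893 promoters and 912 gene bodies at an unadjusted p under 0.05, and leaving out AME-d0 replicates 1 and 3 gave 8729, 806 and 629 by limma and 3935, 389 and 425 by the quasi-binomial model, with 0 called throughout. Of 1095 values of the 81 named features under alternatives, 1085 moved by less than 1 SD, and 35, in 13 features, had the other sign. All 196 context differences under alternatives stayed below 0, and the all-CpG difference was -1.01 to -0.421 with 1 library left out. The interaction with age gave 0 calls also without AME-d21 replicate 4, with 8335 bins, 808 promoters and 1005 gene bodies at an unadjusted p under 0.05.

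No pairing of the livers by replicate number was seen: deviations of same-numbered libraries correlated at -0.0241 to 0.0554, and those of all pairs at -0.0621 to 0.0569. These values do not show that no pairing exists. With the replicate number as a block, 0 features were called, and 11058 bins, 911 promoters and 1170 gene bodies had an unadjusted p under 0.05.

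The count of 0 does not show that no feature differed. For bins of 10 to 90% methylation the median unadjusted 95% interval reached 9.76 points on either side, and bins up to 17.5 points apart among those named were not called.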
